A study of Mus musculus with 12 samples.

Results

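The vesicle release machinery was defined by gene symbol alone, with no measured value, and held 69 of the 24531 genes in the deposited tables. The members were 17 synaptotagmins, 15 syntaxins, 4 proteins of the SNAP family (Snap23, Snap25, Snap29 and Snap47), 6 VAMPs, 4 entries for the Munc18 proteins (one of them the pseudogene Stxbp3-ps), 4 other syntaxin-binding proteins, 4 complexins, 4 RIMs, 4 Munc13 proteins, 3 synapsins and 3 SV2 proteins. The symbol rule also took in Snap91, which encodes a clathrin adaptor of vesicle recycling and is not a SNARE. Polyadenylated RNA was sequenced from 2 amygdala regions, basolateral (BLA) and central (CeA), in wild-type males. They belonged to C57BL/6 (B6) or 129S1/SvImJ (S1), both inbred strains. States were naive, fear conditioning (FC) and fear extinction (Ext), and the series looked for genes related to the impaired extinction of S1 mice. There was 1 library for each strain, region and state, 12 in all, so that every library was the only one of its kind. The number of mice behind each library is not stated in the labels, nor whether BLA and CeA came from the same mice, or how long after training tissue was taken; the design text names the central tissue CEm, which the sample labels call CeA.

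Calcium-dependent release begins when a vesicle is tethered and primed at the active zone by RIM and Munc13 proteins. The SNARE proteins of the vesicle (VAMPs) and of the plasma membrane (syntaxins and SNAP proteins) then zip together, guided by Munc18 proteins and held by complexins until a synaptotagmin binds calcium. Synapsins tether the reserve of vesicles, and SV2 proteins are transmembrane glycoproteins of the vesicle that act on release and also serve as botulinum toxin receptors. The BLA is built mostly from glutamatergic projection neurons and the CeA from GABAergic neurons.

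Libraries held 42224899 to 61695302 assigned reads and 17147 to 17630 genes with at least 1 read. Summed region markers followed the labels of the dissections. Summed over 8 markers of BLA excitatory neurons, the level was 2501 to 2760 CPM (read counts scaled to library size) in the 6 BLA libraries and 286.2 to 449.8 CPM in the 6 CeA libraries, with the B6 naive CeA library highest among the latter. Of the 8, 7 were higher in the BLA and Lamp5 was lower (log2 difference -1.53 ± 0.06, edgeR adjusted p = 2.13e-06). Lamp5 made up 158.8 to 199.6 CPM of the CeA sums, which hide a wider spread of Slc17a7. That marker was at 169.4 CPM in the B6 naive CeA and 91.58 CPM in the S1 FC CeA library. In the remaining CeA libraries it was at 12.33 to 36.46 CPM, and the part of this spread in the results was not tested. The 10 markers of CeA and striatal inhibitory neurons summed to 1051 to 1606 CPM in the BLA and to 4722 to 5808 CPM in the CeA, and 9 of the 10 were lower in the BLA. Of these 18 markers, 1 was at 0 in any library. In bulk tissue, fewer cells of a type and less RNA per cell cannot be told apart, and the part that this mix of neurons played in any difference between the regions was not tested.

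The set spanned a wide range of levels, and several genes of the neuronal core were among its most abundant members. Levels were not ranked against all genes. On the deposited FPKM scale, which corrects for transcript length, the highest medians over 12 libraries included those of Snap25 (867 FPKM), Vamp2 (553), Syt1 (271) and Syn2 (262). These encode SNAREs of the plasma membrane and of the vesicle, the fast calcium sensor and a vesicle-tethering synapsin. In all, 13 members had a median of at least 100 FPKM, Syn1, Cplx1, Cplx2, Snap47, Syt11, Syt5 and Sv2a among them. A further 24 members lay between 10 and 100 FPKM, 24 between 1 and 10 FPKM and 8 under 1 FPKM. Within families the spread was large: Syt1 had a median of 271 FPKM, Syt2, the other fast sensor, 1.47 FPKM, and Syt8 was listed at 0 in most libraries. Vamp2 made up 92.8% to 95.7% of the summed FPKM of Vamp1 and Vamp2 in every library. Cplx4, Stx19, Stxbp3-ps and Syt8 had too few reads to be tested, which left 65 members in the naive and FC libraries; Stx11 too was left out of the extinction libraries, where 64 were tested.

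The regions were compared first, over the 8 naive and FC libraries (4 per region), in a model with strain, region and state. Of the 65 members tested, 30 were higher in the BLA, 13 were lower and 22 were not called (edgeR quasi-likelihood test, Benjamini-Hochberg adjusted p below 0.05 over all genes). That is 66.2% of the tested members, against 46.6% of all 16274 genes; 23.2% of all genes were called higher in the BLA and 23.4% lower. With DESeq2, without a filter on low counts and with a length offset the counts were again 30 and 13, against 41.9%, 37.7% and 50.2% of all genes called. All 12 libraries gave 28 and 15 (54.8% of all genes), and limma 28 and 19 (40.6%). A fit that blocked each BLA and CeA pair of 1 strain and state gave 30 and 13 (43.6%). The median log2 difference (BLA minus CeA) was 0.08 over the members and -0.01 over all genes. The p-values here measure the spread of the libraries around an additive model and not the spread between mice. Pan-neuronal markers moved in the same direction as most members: 7 of 10 were higher in the BLA and 1 was lower, and they summed to 6371 to 6751 CPM in the BLA and to 5192 to 5501 CPM in the CeA. All 6 oligodendrocyte markers were higher in the BLA (median log2 difference 0.65), as were 5 of 6 interneuron markers (1.68), with 1 lower. The part of these markers in the result was not tested.

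Among the calcium sensors, 9 of 16 tested synaptotagmins were higher in the BLA and 5 were lower. Syt1, the sensor for synchronous release in forebrain neurons, had a lowest, median and highest level of 1644, 1887 and 2035 CPM in the 6 BLA libraries and of 837.7, 903.7 and 997.5 CPM in the 6 CeA libraries. The regions did not overlap, and over the naive and FC libraries Syt1 was higher in the BLA by 1.07 ± 0.05 on the log2 scale (estimate ± SE, 4 libraries per region, edgeR adjusted p = 3.61e-06). The largest difference of the set was that of Syt17, an atypical synaptotagmin without a transmembrane segment. It lay at 49.99, 52.4 and 58.1 CPM in the BLA and at 1.17, 2.92 and 4.39 CPM in the CeA, a log2 difference of 4.04 ± 0.25 (edgeR adjusted p = 8.58e-06). Syt10 went the other way: it was at 0.498, 1.30 and 3.10 CPM in the BLA and at 8.76, 14.4 and 23.6 CPM in the CeA, a log2 difference of -3.06 ± 0.23 (edgeR adjusted p = 1.81e-05). In mice Syt10 is known as a calcium sensor for growth factor release in the olfactory bulb. Syt2, the fast sensor best known from the brainstem and spinal cord, was lower in the BLA, at 1.98 to 3.89 CPM against 6.38 to 9.80 CPM, with a log2 difference of -1.39 ± 0.17. Syt6, which is known from the exocytosis of the sperm acrosome, was also lower in the BLA, with a log2 difference of -1.15 ± 0.08, and so were Syt5 and Syt14 at -0.35 each. Syt3, Syt4, Syt7, Syt9, Syt11, Syt12 and Syt13 were higher in the BLA by 0.23 to 0.69.

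Of the SNARE proteins, Stx1a, Snap25 and Vamp2 of the neuronal fusion complex were higher in the BLA, and so were Snap29, Snap47 and the endosomal Stx7 by 0.32 to 0.43 on the log2 scale. Stx1a, a syntaxin of the presynaptic membrane, was at 236.1, 264.1 and 299.4 CPM in the BLA and at 56.3, 59.8 and 70.2 CPM in the CeA. The groups stood far apart, with a log2 difference of 2.05 ± 0.06 (edgeR adjusted p = 5.99e-07), the smallest adjusted p of the set. Snap25 was at 2269 to 2615 CPM in the BLA and 1178 to 1443 CPM in the CeA (log2 difference 0.91 ± 0.07), and Vamp2 at 1431 to 1529 CPM and 935.4 to 1002 CPM (0.62 ± 0.05). Vamp1, the other neuronal VAMP, was at 85.6 to 104.3 CPM in the BLA and 84.95 to 99.2 CPM in the CeA. Its log2 difference of 0.08 ± 0.06 did not pass the test. Stx16 of the Golgi, Stx3 of the plasma membrane and Stx6 of endosomes were lower in the BLA, at -0.48, -0.23 and -0.25. Of 14 tested syntaxins 8, and of 6 VAMPs 5, were not called between the regions.

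Snap25 RNA exists in a pair of forms that use one or the other of 2 neighbouring copies of the same exon. The 2 copies are shown because the deposited transcripts NM_011428 and NM_001291056 are told apart by them. They are exon 5 in the GENCODE M21 annotation (GRCm38), on the plus strand at chr2:136770057-136770174 and chr2:136769743-136769860. Each is 118 bases long, they are 73.7% identical, and capitals mark the 31 bases that differ.
NM_011428: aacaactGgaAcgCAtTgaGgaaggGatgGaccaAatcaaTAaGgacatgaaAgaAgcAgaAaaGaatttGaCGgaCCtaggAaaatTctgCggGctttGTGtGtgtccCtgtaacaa
NM_001291056: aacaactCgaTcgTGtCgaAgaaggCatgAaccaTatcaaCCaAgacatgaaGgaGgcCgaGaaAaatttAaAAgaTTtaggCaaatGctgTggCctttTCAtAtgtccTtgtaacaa

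The complexins, clamps of the SNARE complex, differed between the regions in opposite directions. Cplx1 was at 682.6, 740.8 and 791.4 CPM in the BLA and at 239.1, 248.1 and 296.9 CPM in the CeA, a log2 difference of 1.51 ± 0.08 (edgeR adjusted p = 4.58e-06). Cplx2 was at 675.0 to 1113 CPM in the BLA and 1060 to 1306 CPM in the CeA, so that the S1 FC BLA library reached into the CeA range. Its log2 difference was -0.48 ± 0.10 (edgeR adjusted p = 0.0040). Cplx1 thus made up 59.5% to 71.7% of the summed complexin FPKM in the BLA and 29.3% to 35.7% in the CeA, where Cplx2 held 64.2% to 70.6%. The sparse Cplx3, best known from the ribbon synapses of the retina, was higher in the BLA by 2.44 ± 0.17, at 5.81 to 9.41 CPM against 0.725 to 1.54 CPM. Stxbp2, the Munc18 of immune and epithelial cells, was lower in the BLA, with a log2 difference of -1.13 ± 0.08 (edgeR adjusted p = 1.81e-05). Of the other syntaxin-binding proteins, Stxbp5, the inhibitory tomosyn, was higher in the BLA by 0.78 ± 0.05. Its paralog Stxbp5l ranged from 38.2 to 206.5 CPM among the libraries, more widely than its relatives, and was not called for region or strain.

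At the active zone, priming factors showed the same divergence between close relatives. Unc13a, the main Munc13 of forebrain synapses, was higher in the BLA by 0.42 ± 0.07 on the log2 scale, and Unc13b by 1.47 ± 0.09. Unc13c, the Munc13 best known from the cerebellum, was at 16.6, 27.5 and 42.9 CPM in the BLA and at 99.9, 116.2 and 154.4 CPM in the CeA. No BLA library reached the CeA range, and the log2 difference was -2.15 ± 0.12 (edgeR adjusted p = 4.74e-06). Unc13c was 3.57% to 8.46% of the summed Munc13 FPKM in the BLA and 25.2% to 30.9% in the CeA, while Unc13b went from 14.1% to 22.4% in the BLA down to 5.56% to 8.95% in the CeA. Rims1, the central scaffold of the active zone, was at 69.9 to 146.5 CPM in the BLA and 38.3 to 70.8 CPM in the CeA, a log2 difference of 1.44 ± 0.14. Its share of the RIM FPKM was 55.7% to 61.0% in the BLA and 36.0% to 37.6% in the CeA.

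Of the 6 synapsin and SV2 genes, 5 were higher in the BLA in the naive and FC libraries and Sv2c was lower. Syn3 was higher by 0.35 ± 0.10 on the log2 scale there, and had a log2 difference of -0.16 ± 0.07 after extinction that did not pass the test. Syn1 and Syn2 were higher in the BLA by 1.03 ± 0.06 and 1.34 ± 0.06 on the log2 scale, and neither overlapped between the regions. Sv2a, the most evenly spread SV2, was at 522.5 to 647.1 CPM in the BLA and 383.1 to 509.5 CPM in the CeA (log2 difference 0.46 ± 0.05). Sv2b was at 731.4, 857.6 and 939.7 CPM in the BLA and at 114.6, 125.9 and 180.0 CPM in the CeA. Its log2 difference of 2.61 ± 0.14 (edgeR adjusted p = 5.15e-06) was the second largest on the BLA side after Syt17. Sv2c, which is known from the basal ganglia, was at 3.18, 10.5 and 13.8 CPM in the BLA and at 24.3, 36.2 and 98.1 CPM in the CeA, with a log2 difference of -2.02 ± 0.28 (edgeR adjusted p = 0.000609). By FPKM, Sv2b was 45.6% to 55.4% of all SV2 RNA in the BLA and 13.3% to 24.2% in the CeA. Sv2a took up 70.5% to 81.6% in the CeA, and Sv2c was at most 1.01% in the BLA and between 4.19% and 12.9% in the CeA.

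**Figure D1:**
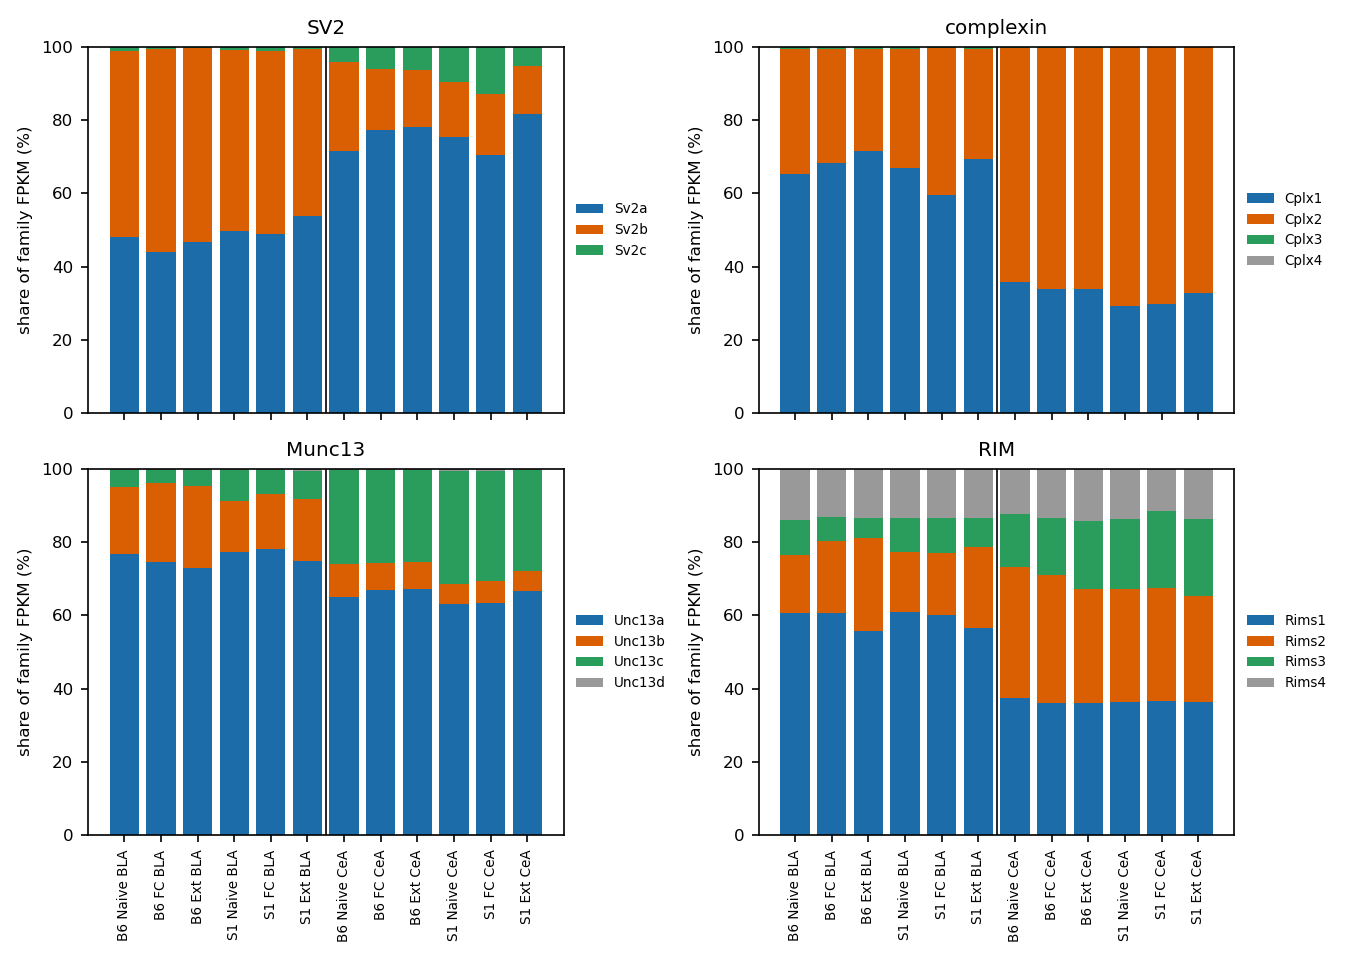
Share of each paralog in the summed FPKM of its family (percent, y axis) in each of the 12 libraries (x axis), for the SV2, complexin, Munc13 and RIM families; the line in each panel parts the 6 BLA libraries on the left from the 6 CeA libraries on the right. Sv2b, Cplx1, Unc13b and Rims1 hold larger shares in every BLA library than in any CeA library, and Sv2c, Cplx2, Unc13c and Rims3 smaller ones.

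The sequences before the start sites of the SV2 genes are shown because these paralogs differed between the regions in opposite directions. Each run is the 250 bases upstream of a RefSeq start (GRCm38.p6), 5′ to 3′ on the strand of the gene, with GC boxes (GGGCGG or its complement CCGCCC) in capitals. They lie at chr3:96180977-96181226 on the plus strand for Sv2a, at chr7:75309263-75309512 and chr7:75308387-75308636 on the minus strand for the starts of the Sv2b transcripts NM_153579 and NM_001109753, and at chr13:96132578-96132827 on the minus strand for Sv2c.
Sv2a: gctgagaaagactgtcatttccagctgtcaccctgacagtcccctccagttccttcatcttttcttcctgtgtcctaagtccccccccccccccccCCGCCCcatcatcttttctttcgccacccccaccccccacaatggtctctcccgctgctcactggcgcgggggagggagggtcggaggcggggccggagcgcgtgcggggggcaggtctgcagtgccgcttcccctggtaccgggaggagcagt
Sv2b NM_153579: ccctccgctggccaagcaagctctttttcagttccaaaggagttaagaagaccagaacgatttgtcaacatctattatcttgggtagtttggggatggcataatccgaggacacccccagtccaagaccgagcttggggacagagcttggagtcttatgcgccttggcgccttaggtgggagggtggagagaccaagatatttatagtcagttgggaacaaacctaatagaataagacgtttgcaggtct
Sv2b NM_001109753: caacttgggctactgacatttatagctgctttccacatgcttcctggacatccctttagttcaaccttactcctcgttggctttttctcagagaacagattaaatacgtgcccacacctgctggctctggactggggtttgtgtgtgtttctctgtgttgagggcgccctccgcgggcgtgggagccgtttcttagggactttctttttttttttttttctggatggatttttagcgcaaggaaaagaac
Sv2c: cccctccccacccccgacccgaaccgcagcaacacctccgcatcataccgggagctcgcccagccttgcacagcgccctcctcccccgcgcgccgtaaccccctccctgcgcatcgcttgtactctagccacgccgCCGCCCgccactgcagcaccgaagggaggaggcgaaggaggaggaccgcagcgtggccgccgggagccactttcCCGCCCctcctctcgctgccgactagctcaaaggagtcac

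The Sv2a and Sv2c runs were rich in G and C (66.0% and 70.8%) and held 1 and 2 GC boxes, while both Sv2b runs were less so (48.8% and 47.2%) and held none. RefSeq promoter windows of 300 bases (250 before and 50 after a start) were matched to 52 of the 69 members, with 67 windows in all. A GC box on either strand was in 44 of the 67 windows (65.67%), against 35.66% of 32851 windows of the genome. The cAMP response element TGACGTCA was in 2 windows (2.99%, against 1.79%), those of Stxbp3 and Syn1. The AP-1 element TGANTCA was in 3 windows (4.48%, against 7.81%), and no motif searched lies within another. The left part of the binding site of the repressor REST, TTCAGCACC, was in the windows of Syn1 and Unc13a (2.99%, against 0.37%), and the right part of that site was in that of Unc13a (1.49%, against 0.52%). A match is a run of letters and was not tested as a binding site.

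The same comparison in the 4 extinction libraries (2 per region) gave 24 members higher in the BLA, 14 lower and 26 not called of 64 tested, which is 59.4% against 36.3% of all 15996 genes. This fit had 1 residual degree of freedom. Of the 43 members called before extinction, 40 had the same sign after it. In both fits 35 were called, 34 of them with the same sign and 1 with the opposite sign. The log2 difference (BLA minus CeA) after extinction was 4.79 ± 0.31 for Syt17, 2.73 ± 0.07 for Sv2b, 2.25 ± 0.10 for Stx1a and 1.65 ± 0.06 for Cplx1. On the CeA side it was -4.31 ± 0.20 for Syt10, -2.98 ± 0.28 for Sv2c, -2.36 ± 0.21 for Unc13c and -1.74 ± 0.28 for Syt2. Rims2, Rims3 and Stx18 were called only in this fit, and Rims3, a short RIM without the scaffold's N-terminal domains, had a log2 difference of -1.50 ± 0.19 after extinction and of -0.30 ± 0.22 before it. Rims1 was called in both fits, but its log2 difference was 0.73 ± 0.11 after extinction against 1.44 ± 0.14 before it. Unc13a was not called after extinction: it was at 266.3 and 287.2 CPM in the BLA and at 303.2 and 278.9 CPM in the CeA of B6 and S1, a log2 difference of -0.06 ± 0.07.

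**Figure D2:**
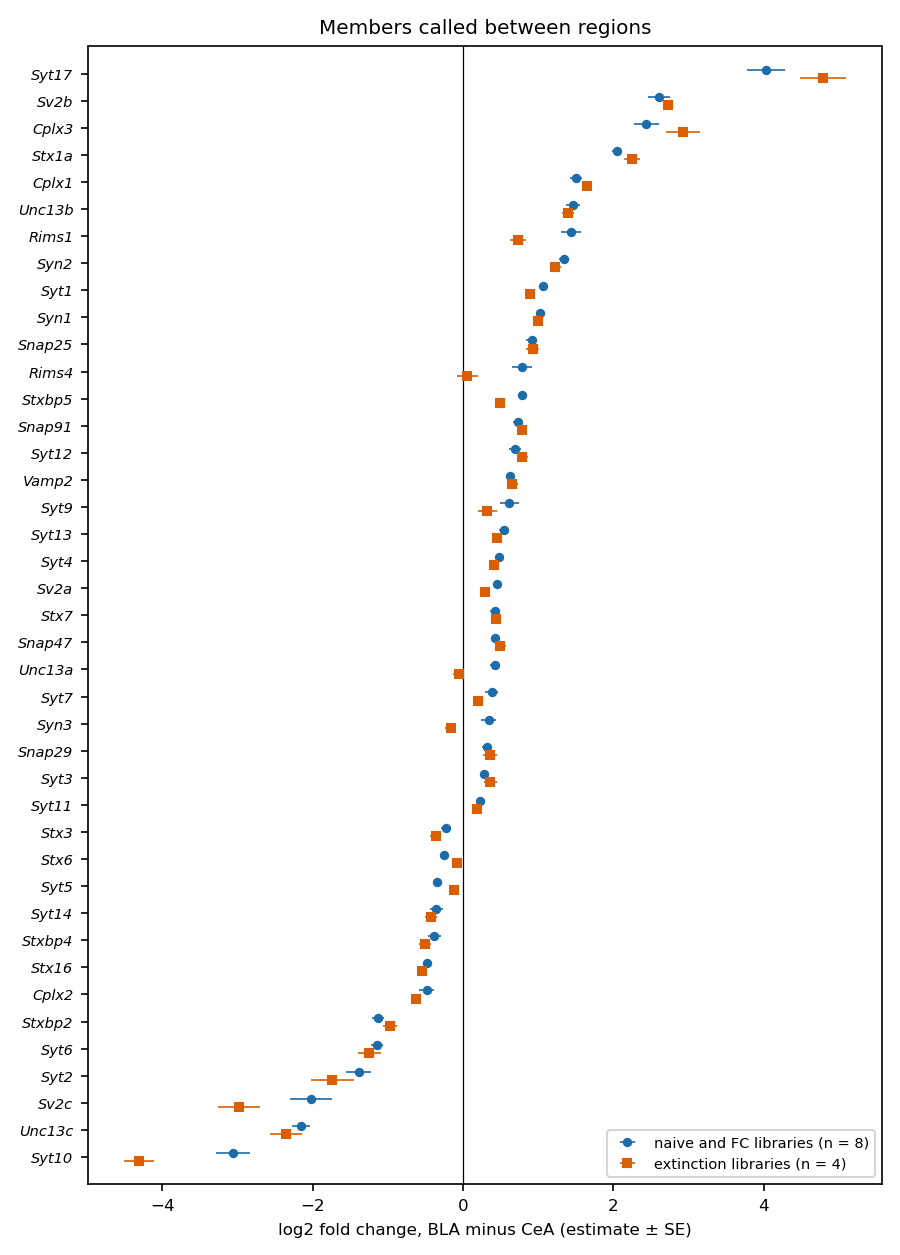
Log2 fold change between the regions (BLA minus CeA, x axis, estimate ± SE) for 41 of the 43 members called in the naive and FC libraries (y axis), in those 8 libraries (circles) and in the 4 extinction libraries (squares). Points to the right of 0 are higher in the BLA; Syt17 lies farthest right and Syt10 farthest left in both sets.

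The change of the region gap after extinction was fitted over all 12 libraries. Of the members named here, the smallest p were those of Unc13a (-0.50 ± 0.13), Rims3 (-1.24 ± 0.37), Rims4 (-0.75 ± 0.23), Syt10 (-1.33 ± 0.43) and Rims1 (-0.73 ± 0.24), each with an edgeR adjusted p of 0.52. None of 66 members was called for this change in edgeR, against 0.0121% of all genes, and DESeq2 called 1, against 0.49% of all genes. An unadjusted edgeR p below 0.05 was found for 12 members, and all genes were not counted at that threshold. The extinction libraries were deposited in tables of their own, so state and table cannot be told apart here. The ribosomal precursor RNA Rn45s took 0.0307% to 0.0538% of the reads in the extinction libraries and 0.154% to 1.71% in the naive and FC libraries, where the naive and FC CeA libraries of S1 were highest (1.21% and 1.71%). Its part in the extinction and strain results was not tested.

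The strains were compared next, within the same 8 naive and FC libraries (4 per strain), which bears on the question of the series. Of 65 members tested, 15 were higher in S1, 5 were lower and 45 were not called. That is 30.8%, against 22.8% of all genes, of which 12.4% were higher in S1 and 10.4% lower, and the median log2 difference (S1 minus B6) was 0.01 over the members and -0.00 over all genes. Of the 13 members with a median of at least 100 FPKM, 2 were called, Sv2a being one. Snap25, Vamp2, Syt1, Syn1, Syn2 and Cplx1 had log2 differences from -0.07 to 0.14 that did not pass the test. All 20 called members kept their sign in the extinction libraries, but Stxbp2 alone was called there, lower in S1. That is 1 of 64 members, against 1.64% of all genes (0.638% higher in S1 and 1% lower). DESeq2 also called Stxbp4 and Sv2a in those libraries, both higher in S1, against 3.46% of all genes. In the edgeR fit 12 members had an unadjusted p below 0.05, but all genes were not counted at that threshold.

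Stxbp2 showed the largest strain difference. It was at 38.1, 34.3 and 40.9 CPM in the naive, FC and Ext libraries of the B6 BLA and at 11.1, 11.6 and 13.4 CPM in those of the S1 BLA. In the CeA it was at 91.9, 83.5 and 89.0 CPM in B6 and at 22.4, 22.1 and 24.0 CPM in S1. Every S1 library lay below every B6 library, also across the regions. The log2 difference (S1 minus B6) was -1.82 ± 0.08 in the naive and FC libraries (edgeR adjusted p = 1.60e-05) and -1.76 ± 0.09 in the extinction libraries (edgeR adjusted p = 0.011). Stxbp2 is annotated at chr8:3631160-3643644 in mm10, as the 1 transcript NM_011503 of 2703 bases. The build is a B6 genome, and the libraries of both strains were quantified on it.

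The other members lower in S1 were 4 proteins that are not part of the neuronal core. Vamp3, the widespread cellubrevin of endosomal recycling, was at 27.8, 34.0, 29.9 and 34.8 CPM in the B6 naive and FC libraries and at 22.3, 24.9, 22.8 and 22.6 CPM in those of S1. The groups did not overlap, and the log2 difference was -0.44 ± 0.07 (edgeR adjusted p = 0.0056). Vamp8, which serves secretory cells and endosomes, differed by -0.58 ± 0.16, and Vamp5, known from muscle, by -0.85 ± 0.19 at levels of 0.734 to 1.63 CPM. Syt15, a synaptotagmin without calcium binding, differed by -1.68 ± 0.35 but reached at most 1.48 CPM in any library. Several lists of non-neuronal markers, but not all, also had members lower in S1. All 6 oligodendrocyte markers were lower in S1 and summed to 2946 to 4626 CPM in B6 and 1626 to 3148 CPM in S1 over these 8 libraries; 4 of 6 microglial markers were lower (307.8 to 343.9 CPM against 258.2 to 273.9 CPM) and 4 of 6 astrocyte markers were lower (3288 to 3755 CPM against 3241 to 4009 CPM). The astrocyte sums of the strains overlapped. Of 4 endothelial and mural markers 1 was lower. None was called of 3 oligodendrocyte precursor markers (median log2 difference 0.13) or of 4 markers of choroid plexus and ependyma (0.03). Neuronal lists also held calls: 2 of 6 interneuron markers were lower in S1 (median log2 difference -0.60). Higher in S1 were 2 of 10 markers of CeA and striatal inhibitory neurons (0.20) and 1 of 10 pan-neuronal markers (-0.03). Of 8 markers of BLA excitatory neurons none was called (-0.32). No oligodendrocyte, microglial or astrocyte marker was at 0. The part of non-neuronal cells in the lower Stxbp2, Vamp3, Vamp5 and Vamp8 was not tested.

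Of the 15 members higher in S1, 6 were called lower in the BLA and 6 higher there. Over the 65 tested members, 13 were called lower in the BLA and 30 higher. This overlap was not counted over all genes. Unc13c was at 24.9 and 16.9 CPM in the B6 naive and FC BLA, and at 42.9 and 34.4 CPM in the S1 BLA. In the CeA it was at 99.9 and 102.8 CPM in B6 and at 154.4 and 154.3 CPM in S1. It was higher in S1 in all 4 pairs, and the log2 difference was 0.75 ± 0.11 (edgeR adjusted p = 0.0039). Stxbp4, known as Synip from insulin-stimulated transport, was at 17.8, 18.7, 16.5 and 22.8 CPM in B6 and at 23.6, 35.3, 26.8 and 35.5 CPM in S1, without overlap, a log2 difference of 0.67 ± 0.09 (edgeR adjusted p = 0.0023).

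Syt10 was at 1.65, 8.76, 0.869 and 9.77 CPM in the B6 naive BLA, naive CeA, FC BLA and FC CeA libraries and at 1.73, 21.2, 3.10 and 23.6 CPM in those of S1. It was higher in S1 in each of the 4 pairs, by 1.14 ± 0.22 on the log2 scale (edgeR adjusted p = 0.010; 0.059 without the B6 FC CeA library). Sv2c was at 12.5, 24.3, 8.47 and 32.2 CPM in B6 and at 12.5, 64.3, 13.8 and 98.1 CPM in S1. The naive BLA libraries were alike, and the log2 difference of 0.94 ± 0.27 had an edgeR adjusted p of 0.042, which rose up to 0.17 among the alternatives. Rims3 (0.77 ± 0.22), Syn3 (0.49 ± 0.10), Rims4 (0.43 ± 0.13), Syt14 (0.40 ± 0.09), Rims2 (0.33 ± 0.09) and Sv2a (0.26 ± 0.05) were also called higher in S1 as log2 differences.

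How many members were higher in S1 depended on single libraries. The count was 15 with all 8 libraries. Leaving out the FC CeA library of B6 gave 3, its naive CeA library 4 and its FC BLA library 6, while leaving out its naive BLA library gave 19. Of the S1 libraries, leaving out naive CeA gave 6, FC CeA 9, FC BLA 10 and naive BLA 12. The count of members lower in S1 was 5, and fell to 2 without B6 naive CeA and to 3 without B6 FC BLA. Stxbp2, Stxbp4, Unc13c and Vamp3 stayed called in each of the 15 alternative fits, with edgeR, DESeq2 or limma adjusted p of at most 0.026. The other called members of at least 1 CPM on average named above with a strain difference lost their calls in some of the 8 fits that each left out 1 library. The call was lost in 1 of these fits for Syt10, in 3 for Syn3, Syt14 and Vamp5, and in 4 for Sv2a. It was lost in 5 for Sv2c and Rims2, in 6 for Rims3 and Vamp8 and in 7 for Rims4. The sparser Syt15 also lost its call without B6 naive CeA, where Stxbp2 and Vamp3 were the 2 members still called lower. Adjusting for transcript length left 7 members higher in S1 and 5 lower, against 15.2% of all genes, and limma 8 and 6, against 14.2%. DESeq2 called 20 and 6, against 24.4%, all 12 libraries gave 10 and 7, against 22.1%, and no filter on low counts 12 and 5, against 16.3%. Blocking each B6 and S1 pair of 1 region and state gave 15 and 5, against 22.3%.

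**Figure D3:**
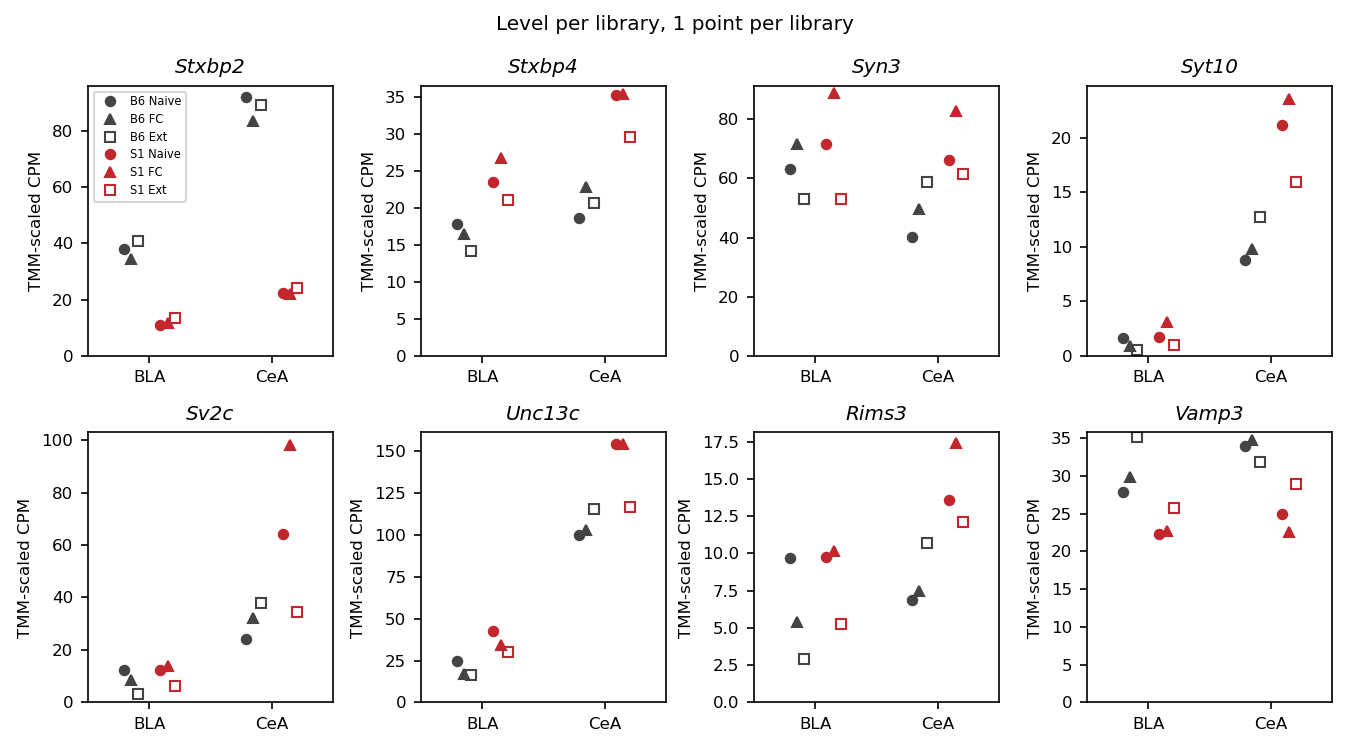
Level of 8 members in TMM-scaled CPM (y axis, from 0) by region (x axis), 1 point per library; grey marks B6 and red S1, circles naive, triangles FC and open squares extinction libraries. The S1 points of Stxbp2 lie below every B6 point of either region, while the S1 points of Syt10 and Rims3 lie above every B6 point in the CeA. Sv2c is higher in S1 in the naive and FC CeA libraries, and in the extinction CeA libraries it is at 34.6 CPM in S1 and 37.9 CPM in B6.

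**Figure D4:**
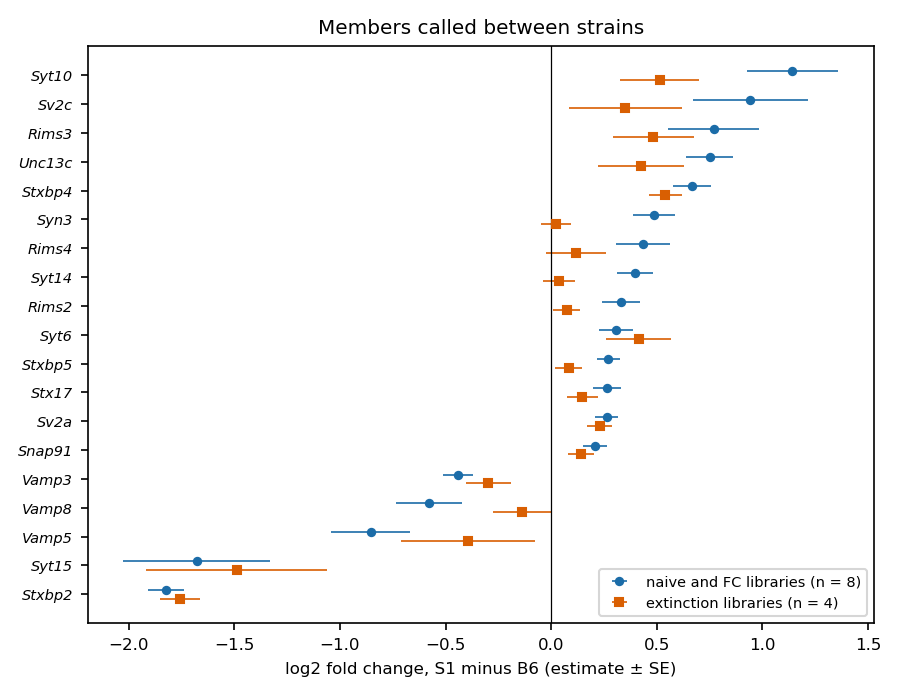
Log2 fold change between the strains (S1 minus B6, x axis, estimate ± SE) for 19 of the 20 members called in the naive and FC libraries (y axis), in those 8 libraries (circles) and in the 4 extinction libraries (squares). All 19 keep their side of 0, and Stxbp2 is the only one called in both sets.

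Whether the strain gap differed between the regions was tested by an interaction over the naive and FC libraries. No member of 65 was called by edgeR, against 0.0307% of all genes (0.00614% with a positive and 0.0246% with a negative value). Without a filter on low counts 0.00516% of all genes were called. There were 5 members with an unadjusted p below 0.05, a threshold at which all genes were not counted. The smallest p was that of Syn3, a synapsin of low level in the adult: it was at 63.1 and 71.5 CPM in the B6 BLA, 71.5 and 88.8 in the S1 BLA, 40.3 and 49.8 in the B6 CeA, and 66.1 and 82.9 in the S1 CeA. Its strain gap was smaller in the BLA than in the CeA by a log2 value of -0.48 ± 0.11 (edgeR adjusted p = 0.39). Sv2c (-1.20 ± 0.35) and Rims2 (-0.38 ± 0.12) had the same sign, with edgeR adjusted p of 0.51 and 0.52, and Stxbp2 the opposite one (0.31 ± 0.13, edgeR adjusted p = 0.56). DESeq2 called 1 member, Syn3, at -0.49 ± 0.13 (DESeq2 adjusted p = 0.034), against 0.715% of all genes.

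No member was called for fear conditioning. FC and naive libraries were compared over 4 libraries each: edgeR called 0 of 65 members and 0% of all genes, 1 member had an unadjusted p below 0.05, and DESeq2 called 0 members and 0.128% of all genes. That member was Syn3, with a log2 difference (FC minus naive) of 0.28 ± 0.10 (edgeR adjusted p = 0.999). Syn3 was higher after conditioning in all 4 pairs, and Syt1, Syt3, Syt4, Syt15 and Vamp5 were lower in all 4. The log2 differences of the pairs were 0.178 to 0.325 for Syn3 and -0.0891 to -0.0076 for Syt1. How many of all genes had the same sign in all 4 pairs was not counted, so these signs are not read as a response. Of the other members nearest to the threshold, Unc13c stood at -0.20 ± 0.11, Syt4, a synaptotagmin of dense-core vesicles, at -0.09 ± 0.05, and Syn1 at 0.09 ± 0.06. The conditioning difference between the strains gave 0 calls (0% of all genes) and 0 members with an unadjusted p below 0.05, led by Syt9 at 0.48 ± 0.21. That between the regions also gave 0 calls (0.0184% of all genes, 0.00614% positive and 0.0123% negative), with 1 unadjusted p below 0.05, that of Unc13c at -0.46 ± 0.16. Last, the strain gap after extinction was compared with the gap before it over all 12 libraries: edgeR and DESeq2 called 0 of 66 members (0% of all genes in edgeR and 0.269% in DESeq2), and 1, Syt14, had an unadjusted p below 0.05, with a log2 change of -0.35 ± 0.14. Each of these tests rests on 1 library per strain, region and state, and a difference that misses the threshold is not shown to be absent.

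Shares of transcripts within a gene were compared last. The 69 members were listed with 128 transcripts, and 79 transcripts of members with more than one form were tested for a share of the gene's reads that differed. None was called for region (0.556% of all 12950 transcripts) or for strain (0.672%) by edgeR's test of transcript usage. The Syn2 transcript NM_001326560 was among those nearest to a call for region (edgeR adjusted p = 0.096, unadjusted p = 0.00075). It was 10.2% to 21.3% of Syn2 reads in the BLA and 5.10% to 15.1% in the CeA, with overlap, and in the extinction libraries its share was higher in the CeA in both strains. The transcripts described next were chosen after their shares were seen. Sv2b NM_001109753, which starts at the more downstream of both sites printed above, was 27.0% to 33.3% of Sv2b reads in the BLA and 38.3% to 73.4% in the CeA (edgeR adjusted p = 1, unadjusted p = 0.055). Without the B6 FC CeA library, at 73.4%, the CeA range ended at 49.3%, still without overlap. Snap25 NM_001291056 was 13.9% to 19.9% of Snap25 reads in 10 libraries, and 33.7% in the S1 FC CeA and 36.2% in the B6 Ext CeA library. The Stx1a transcript NR_133683, listed as non-coding, was 5.59% to 6.78% in the BLA and 9.39% to 14.7% in the CeA. It was not called for region (edgeR unadjusted p = 0.086). How many of all transcripts had shares without overlap between the regions was not counted. Reads shared between transcripts are split by estimation, so that these shares are less certain than the gene totals.

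**Figure D5:**
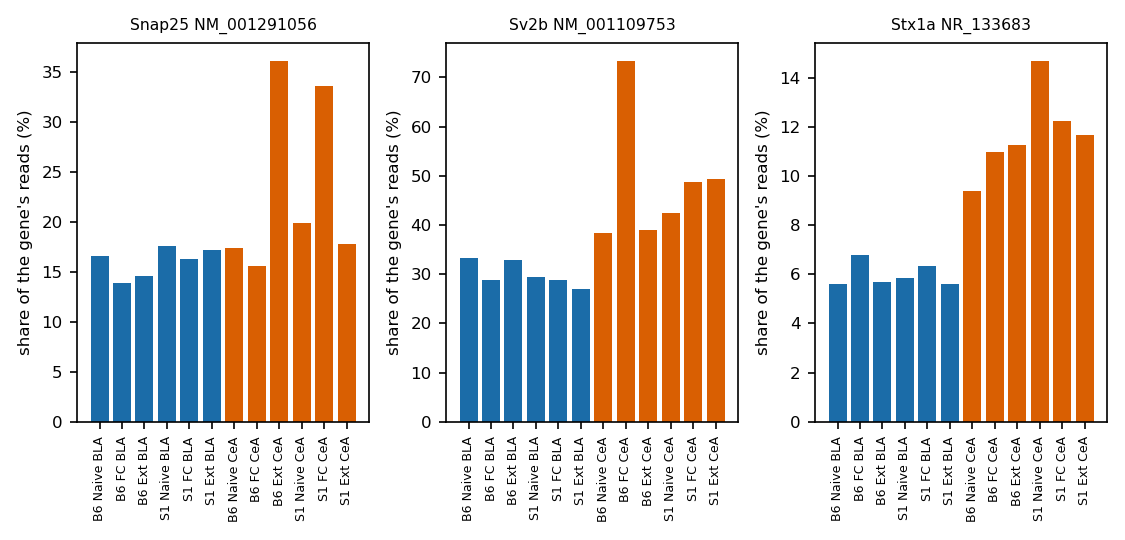
Share of a gene's reads assigned to 1 transcript (percent, y axis from 0) in each library (x axis; blue BLA, orange CeA), for transcripts of Snap25, Sv2b and Stx1a. The Sv2b and Stx1a shares are higher in every CeA library than in any BLA library, while the Snap25 share is highest in the B6 Ext CeA library, at 36.2%. No transcript shown was called for region or strain.

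Other genes of the pathway were mostly higher in the BLA. Over all genes 46.6% were called between the regions, 23.2% higher in the BLA and 23.4% lower. Of 26 exocytosis partners outside the set, such as tethers, Rab proteins and calcium sensors of other families, 21 were higher in the BLA, 2 were lower and 3 were not called, with a median log2 difference of 0.70. The highest was Cadps2 (2.39 ± 0.20), a priming factor of dense-core vesicles, followed by Rab3b (1.72 ± 0.17), a GTPase of synaptic vesicles, and Rph3a (1.69 ± 0.08), a Rab3 effector. Rab27b (-0.66 ± 0.10) and Doc2b (-0.58 ± 0.12) were lower. Of 16 genes of the vesicle membrane and of recycling, 13 were higher in the BLA and 2 were lower. They were led by the glutamate transporters Slc17a7 (4.66 ± 0.67) and Slc17a6 (2.82 ± 0.54) on the BLA side and by the GABA transporter Slc32a1 (-1.73 ± 0.07) on the CeA side. Slc17a7 and Slc32a1 are also among the region markers used above. Between the strains, 3 exocytosis partners were higher in S1, Pclo (0.57 ± 0.13), Erc1 (0.50 ± 0.08) and Ppfia2 (0.22 ± 0.06), and Rab3b was lower (-0.80 ± 0.17), so that 4 of 26 were called against 22.8% of all genes. The active zone genes Bsn (0.28 ± 0.13), Erc2 (0.16 ± 0.06), Rimbp2 (0.17 ± 0.07) and Ppfia3 (0.13 ± 0.06) of the same list were not called. Of the vesicle membrane and recycling genes, Synj1 (0.26 ± 0.06) and Slc32a1 (0.24 ± 0.07) were higher in S1 and Synpr (-0.69 ± 0.11) and Bin1 (-0.20 ± 0.06) lower. None of either list was called between the strains after extinction.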

How the data were processed

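RNA from 12 libraries was prepared with a stranded poly(A) kit, per the labels' protocols, and quantified with StringTie, per the submitters' processing notes. The authors deposited read counts and FPKM values for each gene and transcript on mm10, with transcript lengths, in one pair of tables for the naive and FC libraries and another for the extinction libraries. For the aligner, strand setting and annotation release, the entry is: not given in the sources used here. Deposited transcript counts were summed per gene; 1 count column of a gene table matched no sample by name and was not used. In the 11 libraries where both could be compared, the sums differed from the deposited gene counts for 73 to 95 genes. Close paralogs may share reads.

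Gene counts entered edgeR 4.0.16 (R 4.3.3): TMM scaling, filtering by filterByExpr, quasi-likelihood F tests and Benjamini-Hochberg adjustment over all genes, called at an adjusted p below 0.05. SE is the log2 fold change divided by the root of F. Naive and FC libraries were fitted with strain, region and state, and extinction libraries with strain and region. Interactions and changes after extinction had models of their own, the last over all 12 libraries. Transcript shares were tested with diffSpliceDGE. Levels are TMM-scaled CPM, or deposited FPKM where genes are compared. Alternatives were DESeq2 1.42.0, median-of-ratios scaling, no filter on low counts, an offset for transcript length, limma 3.58.1 on log2(FPKM + 1), all 12 libraries together, and leaving out each library. The scripts were tested on simulated data. Depth limits only the sparsest members, since 3 reads correspond to 0.0486 to 0.071 CPM; counting error alone is meant.

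The members, the gene lists and the tests were chosen with earlier results of these data known. Full statistics are given for a core of 17 release genes and for up to 10 called members of at least 1 CPM on average with the largest change in each direction; where none was called, the 3 members with the smallest p in each direction were listed. The fit of the change of the region gap after extinction, with its alternatives, the length offset for the change of the strain gap and the fits with pairs of libraries as blocks were added after seeing the data. Some members and 1 marker entered every fit and count but are not reported here by name.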

Additional observations from a re-analysis of the deposited data

How the results depend on the processing

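The region counts kept to within 1.5 times their value under every alternative run: 28 to 30 members higher and 13 to 19 lower in the BLA before extinction, and 29 to 31 higher and 12 to 14 lower when one library was left out; after extinction, 20 to 27 and 12 to 15. The strain counts before extinction were less stable. The 15 members higher in S1 became 7 with the length offset, 8 with limma, 10 with all 12 libraries and 20 with DESeq2, and 3 to 19 without one library; the 5 lower became 5 to 7, and 2 to 6 without one library. The cause was not tested. After extinction, DESeq2 called 2 members higher in S1, against 0. Among tests with 0 calls, DESeq2 called 1 member for the strain by region interaction and 1 for the change of the region gap after extinction; leaving out one library gave 0 in each gene-level test of this kind, and 0 to 1 for transcript shares between the regions. Leaving out single libraries ended 46 of 120 strain calls of named members, 11 of 15 without the B6 FC CeA library, and reversed none. Replicate numbers pair no samples, since each group holds number 1 only. A block on the libraries that share strain and state, or region and state, chosen after seeing the data, left 3 residual degrees of freedom and the same counts, 30 and 13 for region and 15 and 5 for strain. In the extinction fit 1 residual degree of freedom limits what can be called; leaving a library out there leaves no test. Depth, at 42224899 reads or more, limits only members near 0.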
